A study of Caenorhabditis elegans with 12 samples.

Results

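The comparison described here is that of wrn-1(gk99) mutant worms with wild type N2 worms when both were grown on vitamin C. It takes 6 of the 12 RNA-seq libraries of the study, 3 labelled wrn-1 vitC and 3 labelled N2 vitC, and all genes whose normalized counts averaged 10 or more over these 6 libraries, which are 14332 of the 45327 genes listed. N2 is the laboratory wild type of the nematode Caenorhabditis elegans, and the mutant carries the gk99 deletion in wrn-1, out-crossed to N2. Worms of both strains were raised at 25°C from the first larval stage on plates with 10 mM sodium L-ascorbate (vitamin C, vitC), and whole worms were harvested at the L4 stage as judged by vulva and gonad formation, with 3 biological replicates per group. The other 6 libraries are the same strains without ascorbate. The study noted that the mutant develops more slowly, so the strains were matched by stage and not by hours of growth.

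WRN-1 is the worm ortholog of the human Werner syndrome protein, a RecQ helicase that unwinds DNA structures during replication and repair. Vitamin C is an electron donor, and it keeps iron-dependent dioxygenases active, among them the prolyl hydroxylases that modify collagen. In an L4 larva the germ line is turning from sperm to oocyte production, and the epidermis is building the collagens of the adult cuticle before the last molt, so that genes of both tissues change quickly with stage.

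One library has to be described before any result. Over the tested genes, N2 vitC replicates 1 and 2 had a Pearson's r of 0.994 with each other (across genes, which are not independent replicates), while r was 0.959 and 0.960 between them and the library labelled N2 vitC replicate 3, and 0.994, 0.995 and 0.996 between the latter and the wrn-1 vitC libraries. The difference in read counts per gene, as a chi-square that sampling noise alone would bring to about 1, was 98.8 and 103 between that library and N2 vitC replicates 2 and 1, and 2.29, 4.83 and 17.7 between it and wrn-1 vitC replicates 3, 2 and 1. The pairs of wrn-1 vitC libraries themselves had 6.49 to 22.2, so that this library lay as near to them as they lay to each other. It was no copy of any of them by this measure.

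The same was seen with genes chosen on the untreated libraries. Of 287 genes that were at least 4-fold apart between the untreated strains, 267 kept that direction without overlap between wrn-1 vitC and N2 vitC replicates 1 and 2, and in 262 of these the library labelled N2 vitC replicate 3 was nearer to the wrn-1 vitC mean. On a scale from 0 at the mean of N2 vitC replicates 1 and 2 to 1 at the wrn-1 vitC mean, its median position over these genes was 0.984. Whether the library was exchanged, or the worms in it differed, was not tested. It is called the library labelled N2 vitC replicate 3 throughout. Where the counts of single libraries are listed, its value is mostly given apart. The numbers of genes called are given with and without it, as are several list medians and a few log2 fold changes.

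**Figure D1:**
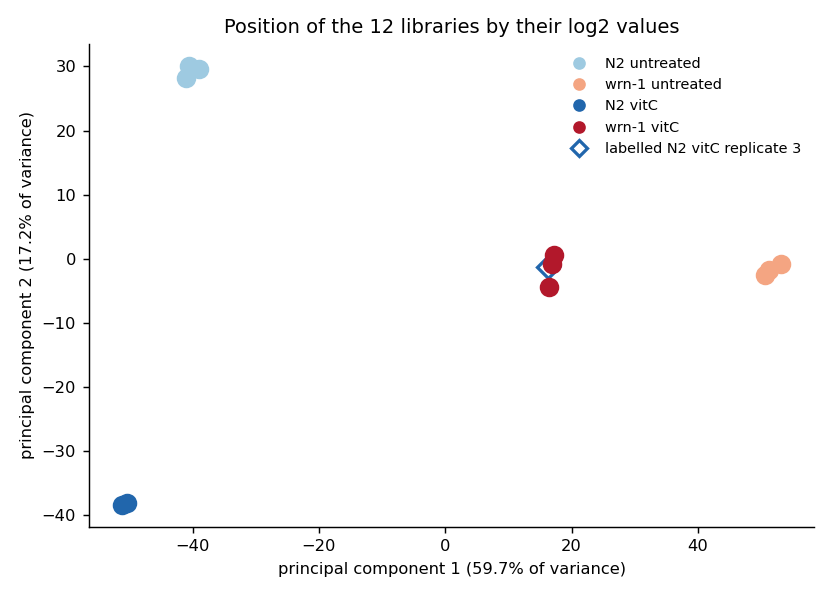
Principal components 1 (59.7% of the variance) and 2 (17.2%) of the log2 normalized counts of the 12 libraries, 1 symbol per library, coloured by group. The library labelled N2 vitC replicate 3 (open diamond) lies at 16.3 on component 1, where the wrn-1 vitC libraries lie between 16.4 and 17.3 and N2 vitC replicates 1 and 2 at -51.2 and -50.4.

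The wrn-1 gene itself lies on chromosome II and has 16 exons in the WBcel235 annotation. Its level was 407 and 380.3 normalized counts in N2 vitC replicates 1 and 2, 614 in the library labelled replicate 3, and 835, 648 and 671 in wrn-1 vitC. Its values were higher in the mutant than in all 3 libraries labelled N2, with a log2 fold change of 0.86 ± 0.10 (adjusted p = 3.51e-06) without the library labelled replicate 3 and 0.64 with it, under the fold required for a call. Reads from outside the deletion are part of the gene's count, so this level does not check the genotype. Each of the 6 libraries held between 13446257 and 26467255 reads on genes, and the adult-stage collagen col-19 and the yolk genes vit-2 to vit-6 did not reach the minimum for testing.

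Genes were compared with limma on log2 values, after adding 1 to each normalized count, in a fit with the untreated libraries. A gene was called when the adjusted p was under 0.01, the group means differed 2-fold or more, and one of them reached 100. With all 6 libraries, 0 of 14332 genes were called (0%), although 6022 genes (42%) had an unadjusted p under 0.05. The smallest adjusted p was 0.0681. In the same libraries edgeR called 0 genes (5594 with an unadjusted p under 0.05), and DESeq2 called 173 (5600), all lower in the mutant. The values of 2348 genes (16.4%) did not overlap between the 3 and 3 libraries. An exact permutation test of a single gene cannot give a two-sided p below 0.1 with 3 against 3 libraries or below 0.2 with 3 against 2.

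Without the library labelled N2 vitC replicate 3, 1119 genes were called (7.81% of those tested). Of these, 579 were higher (4.04%) and 540 lower (3.77%) in wrn-1 vitC, so 51.7% were higher. Scaling to equal totals gave 741 higher and 396 lower (65.2% higher) and moved the median over all genes from -0.01 to 0.11 on the log2 scale. Whatever the fold, 3762 genes were higher and 3721 lower at an adjusted p under 0.01, and 75.1% of all tested genes did not overlap between the 3 and 2 libraries. In 1117 of the 1119 called genes the library labelled N2 vitC replicate 3 lay nearer to the wrn-1 vitC mean, and 252 of them (22.5%, against the 16.4% of all genes) did not overlap in all 6 libraries. Log2 fold changes below are given ± their standard error and, like the adjusted p-values, come from limma without that library unless said otherwise. All calls of the strain difference under vitamin C named below are lost in this limma fit when that library is kept.

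The 8 highest ratios included genes for enzymes, a lectin and small peptides. For fmo-2, a flavin-containing monooxygenase, the normalized counts were 9.42 and 23.5 in N2 vitC replicates 1 and 2, 290.3 in the library labelled replicate 3, and 275, 303 and 285 in wrn-1 vitC. The log2 fold change of fmo-2 was 4.17 ± 0.31 (adjusted p = 2.29e-08), and 2.78 with all 6 libraries. The mutant libraries and the library labelled replicate 3 were alike high, and the other N2 vitC libraries were near the level of untreated N2. Without vitamin C the gene had 26 ± 10.9 in untreated N2 and 193 ± 7.88 in untreated wrn-1 (SD, n = 3 each). The alcohol dehydrogenase gene sodh-1, now adh-1, had 380.4 and 357 in N2 vitC replicates 1 and 2, 2852 in the library labelled replicate 3, and 2876, 3135 and 2833 in wrn-1 vitC, with a log2 fold change of 3.0 ± 0.07 (adjusted p = 2.65e-13). The C-type lectin gene clec-4 (chromosome II) had 94.2 and 97.9 normalized counts, then 816, and 887, 923 and 866 in the mutant, with a log2 fold change of 3.2 ± 0.07 (adjusted p = 2.65e-13). For clec-4 the mutant libraries were above all libraries labelled N2, and for sodh-1 wrn-1 vitC replicate 3 fell just below the library labelled replicate 3. Also among the 8 highest ratios were CD4.5 (3.62 on the log2 scale), Y48E1B.8 (3.36), Y48G9A.11 (2.61) and nspc-10 and nspc-9 (2.72 and 2.53), which belong to a family of nematode-specific peptides and may share reads. CD4.5 had no entry in WBcel235. With the higher minimum group mean of the study, the calls of CD4.5, Y48G9A.11, nspc-10 and nspc-9 were lost.

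The genes with the deepest fall included a lysozyme, a receptor and several members of the pals family. The lysozyme gene lys-8 had 2440.1 and 2517 normalized counts in N2 vitC replicates 1 and 2, 129 in the library labelled replicate 3, and 111, 129 and 114 in wrn-1 vitC, a fall with a log2 fold change of -4.39 ± 0.07 (adjusted p = 9.64e-15). With all 6 libraries the log2 fold change of lys-8 was -2.97. Lys-8 was also lower in the mutant without vitamin C, at 3405 ± 79.9 in untreated N2 and 155 ± 6.53 in untreated wrn-1 (SD, n = 3 each). The serpentine receptor gene srw-85 had 1633 and 1679.6, then 94.5, and 69.97, 67.8 and 87.3 in the mutant, a log2 fold change of -4.45 ± 0.11 (adjusted p = 6.41e-13). Every mutant library of srw-85 was below all 3 libraries labelled N2, while for lys-8 the library labelled replicate 3 was within the mutant range. The uncharacterised gene Y39G8B.5 fell by 3.63 on the log2 scale. It held 153 ± 19.98 (SD, n = 2) normalized counts in N2 vitC replicates 1 and 2, above the mean of 19.5 in untreated N2.

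**Figure D2:**
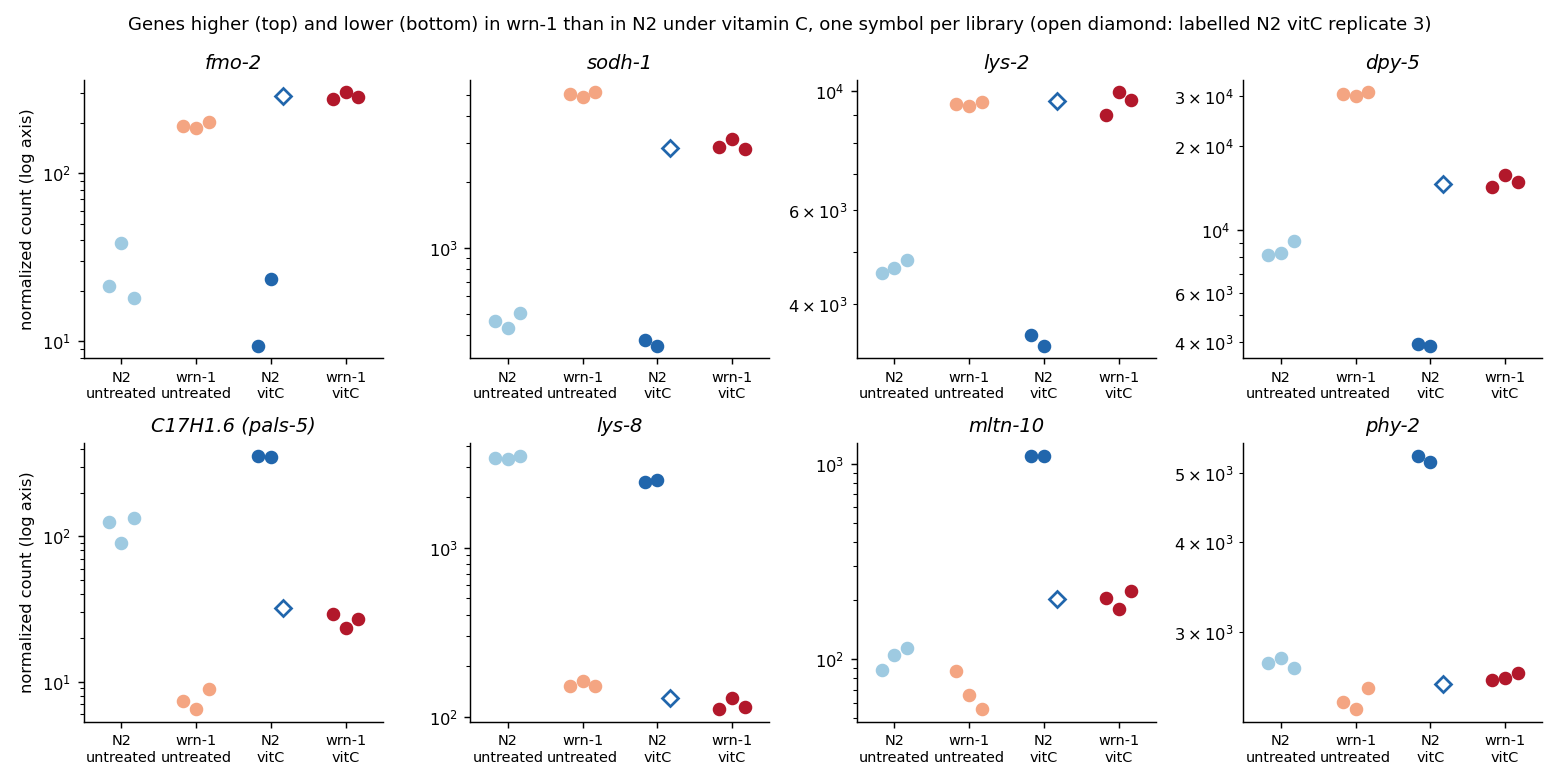
Normalized counts (log axis) of 8 genes in the 12 libraries, 1 symbol per library, grouped by strain and treatment. In fmo-2, sodh-1, lys-2 and dpy-5 (top) N2 vitC replicates 1 and 2 lie below wrn-1 vitC, and in pals-5, lys-8, mltn-10 and phy-2 (bottom) above it, while the open diamond of the library labelled N2 vitC replicate 3 lies at the mutant level in all 8.

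The pals genes code for proteins with a shared domain, and many of them are switched on in the response of the worm to viruses and microsporidia inside its cells. The family was taken up after its values had been seen, and its 35 members tested of 37 in the table were matched by their present symbols. Of the 35, 17 were lower and 0 higher in wrn-1 vitC (48.6% called, beside 7.81% of all genes). The median log2 fold change was -1.09 (-0.72 with all 6 libraries), beside -0.01 for all genes. Pals-11 (C17H1.13, chromosome I) had 168 and 144 normalized counts in N2 vitC replicates 1 and 2, 4.26 in the library labelled replicate 3, and 2.98, 1.38 and 5.09 in wrn-1 vitC. Pals-3 (C17H1.4) had 337 and 370.4, then 15.3, and 24.6, 18 and 17.8, a log2 fold change of -4.08 ± 0.22 (adjusted p = 9.48e-10). Pals-5 (C17H1.6), a much used reporter of this response, had 358 and 353, then 32.3, and 29, 23.5 and 27.1, a log2 fold change of -3.7 ± 0.20 (adjusted p = 1.05e-09). The mutant held a few reads of pals-11 per library, and the library labelled replicate 3 no more than that.

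The highest levels of pals-11, pals-3 and pals-5 in the series were those of N2 vitC replicates 1 and 2. In untreated worms pals-3 had 84.9 ± 13.5 in untreated N2 and 5.99 ± 1.22 in untreated wrn-1 (SD, n = 3 each), and pals-5 had 117 ± 23.5 in untreated N2 and 7.59 ± 1.25 in untreated wrn-1 (SD, n = 3 each). The summed count of the 35 members was 32032 and 30811 in N2 vitC replicates 1 and 2, 14939.6 in the library labelled replicate 3, and 14568, 15516 and 15233 in wrn-1 vitC, and 32395 to 32673 in untreated N2 and 9388 to 9646 in untreated wrn-1. The sum was thus lower in the mutant with and without vitamin C, and 20 members were called lower in the untreated mutant. The members with the strongest signal, pals-6 (C17H1.7), pals-14 (F22G12.1), pals-39 (dct-3 in the table) and pals-26 (B0284.1), fell by 1.09, 1.65, 1.02 and 1.11 on the log2 scale. At the other end pals-22 (C29F9.1) and pals-25 (T17A3.2), which in other work act as a repressor and an activator of the response, had -0.61 and -0.45 and were not called (these named members beyond the first 3 were chosen after their values were seen). The 4 genes of the CUL-6 ubiquitin ligase (cul-6, skr-3, skr-4 and skr-5), which belong to the same response, had 0 calls by limma, edgeR or DESeq2, 2 members with an unadjusted limma p under 0.05, and a median of -0.19.

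Germ line genes were higher in the mutant. Of 30 core germ line genes, which act in the stem cells and meiosis, 18 rose and 0 fell (60% called, beside 7.81% of all genes). All 30 had a positive log2 fold change, and the median was 1.17 (0.77 with all 6 libraries). Their summed normalized count was 17382 and 17702 in N2 vitC replicates 1 and 2, 29268 in the library labelled replicate 3, and 31916, 28413 and 29909 in wrn-1 vitC. In untreated worms it was 22199 to 23067 in untreated N2 and 32154 to 32411 in untreated wrn-1. N2 vitC replicates 1 and 2 were thus below the untreated N2 libraries, while the mutant libraries with vitamin C were at or just below the untreated mutant.

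The largest rises of this list were those of zim-2, htp-2 and htp-3. ZIM-2 is a zinc finger protein that binds a chromosome pairing center, and its gene had 104.8 and 102 normalized counts in N2 vitC replicates 1 and 2, 321 in the library labelled replicate 3, and 324, 313 and 306 in wrn-1 vitC. Its log2 fold change was 1.6 ± 0.11 (adjusted p = 1.54e-08), against 0.59 without vitamin C. HTP-2 and HTP-3 are proteins of the meiotic chromosome axis, with log2 fold changes of 1.55 ± 0.11 (adjusted p = 2.05e-08) and 1.51 ± 0.09 (adjusted p = 2.56e-09). In all 3 genes the N2 vitC replicates 1 and 2 were the lowest of the 12 libraries.

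Oocyte genes were higher in the mutant as well. Of 18 tested of 20 listed, 14 rose, 0 fell and 4 did not pass (77.8% called, beside 7.81% of all genes). The median was 1.25 (0.84 with all 6 libraries). For oma-1, a zinc finger protein needed for oocyte maturation, the normalized counts were 104.8 and 71.8, then 274, and 304, 277 and 276 in the mutant, with a log2 fold change of 1.71 ± 0.14 (adjusted p = 8.30e-08). The related oma-2 had 1.45 ± 0.14 (adjusted p = 5.82e-07), and puf-5, an RNA-binding protein of oocytes, 1.58 ± 0.16 (adjusted p = 5.24e-07). Every mutant library of oma-1 was above all 3 libraries labelled N2. By contrast 0 of 17 sperm genes tested (of 85 listed) were called by limma, edgeR or DESeq2 and 4 had an unadjusted limma p under 0.05, with a median of -0.09, and 1 of 6 yolk genes was tested. In these whole-worm libraries, fewer cells of a type and less RNA per cell cannot be told apart.

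Most DNA repair genes had a positive value, but few were called. Of 44 genes for RecQ helicases, repair and checkpoints, 3 rose, 0 fell and 43 had a positive log2 fold change, with a median of 0.56 (0.36 with all 6 libraries). The 6.82% called is to be read beside the 4.04% of all genes that were higher. The 3 genes called were chk-2, a kinase of early meiosis (1.11 ± 0.16, adjusted p = 2.50e-05), brc-1, the BRCA1 ortholog (1.01 ± 0.10, adjusted p = 5.77e-07), and M01E11.3, now rmh-1, which codes for a scaffold of the Bloom helicase complex (1.01 ± 0.09, adjusted p = 1.96e-07). Their normalized counts in wrn-1 vitC were 157 ± 21.1 (SD, n = 3), 312 ± 31.6 (SD, n = 3) and 469 ± 39.9 (SD, n = 3). Many of these genes are expressed in the germ line, whose own genes rose in the same libraries, and the part of this in the repair genes was not tested. All 3 calls lay close to the required ratio. That of chk-2 was lost without N2 vitC replicate 1 (log2 fold change 0.85) or wrn-1 vitC replicate 1 (1.0), that of brc-1 without N2 vitC replicate 1 (0.88) or wrn-1 vitC replicate 1 (0.99) or 3 (0.96), and that of M01E11.3 without N2 vitC replicate 2 (0.97) or wrn-1 vitC replicate 1 (0.94). The calls of brc-1 and M01E11.3 were also lost with equal upper quartiles (0.97 each).

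**Figure D3:**
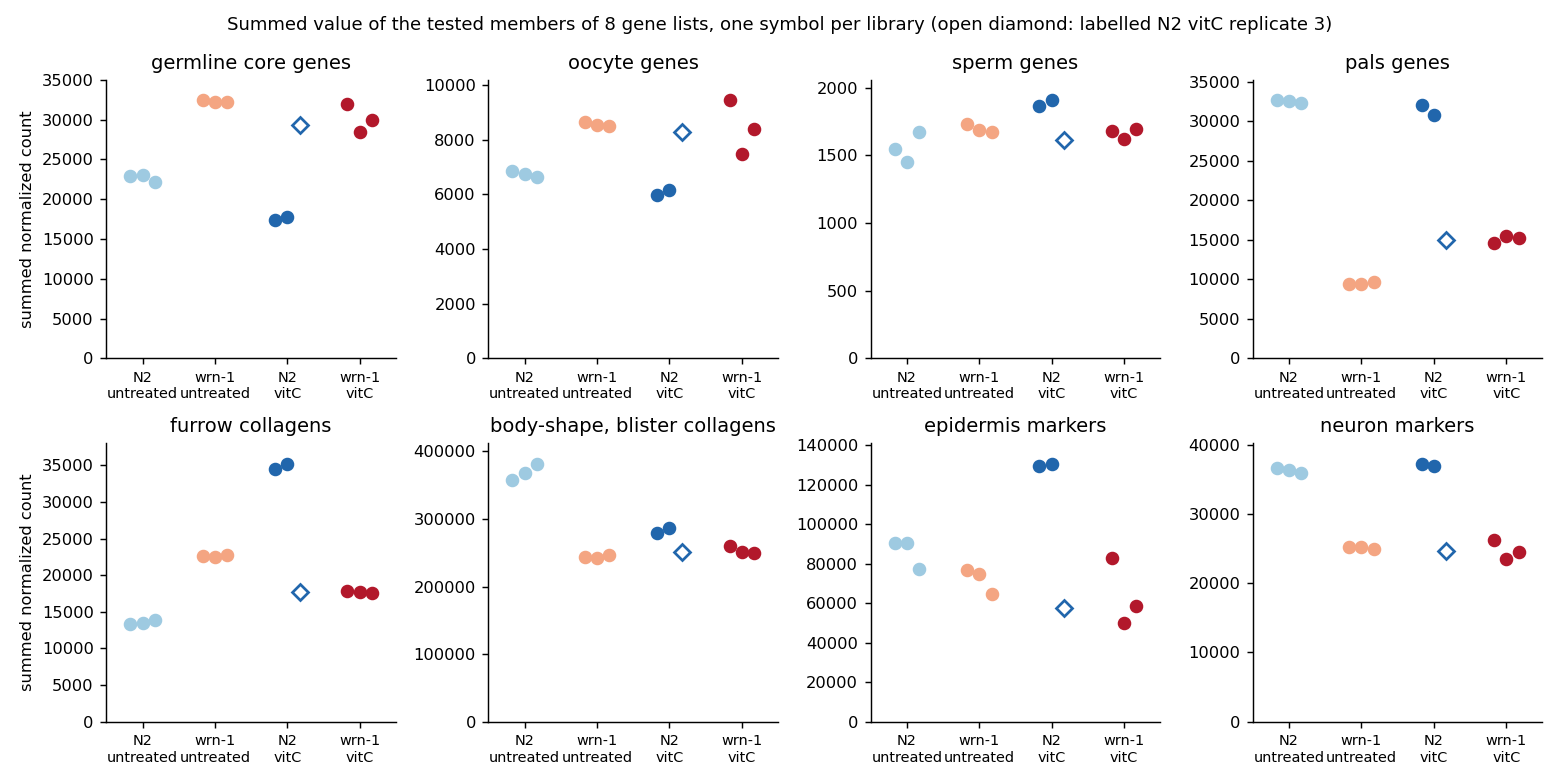
Summed normalized counts of the tested members of 8 gene lists in each of the 12 libraries, on axes that start at 0. For germ line and oocyte genes N2 vitC replicates 1 and 2 are the lowest libraries, for furrow collagens and epidermis markers they are the highest, and the open diamond of the library labelled N2 vitC replicate 3 lies with wrn-1 vitC.

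Cuticle collagens changed in both directions. The col family, the largest set of cuticle collagens, had 37 genes higher and 15 lower of 126 tested (of 159 listed). This is 41.3% called, beside 7.81% of all genes, with a median of -0.01 (-0.05 with all 6 libraries). Among those that rose, col-39 had 1070.5 and 1005 normalized counts in N2 vitC replicates 1 and 2, 4287 in the library labelled replicate 3, and 4299.6, 4343 and 4418 in wrn-1 vitC, a log2 fold change of 2.07 ± 0.06 (adjusted p = 8.58e-13). Col-182, which is a pseudogene in the WBcel235 annotation, and col-77 rose by 2.54 and 2.0 on the log2 scale. The deepest fall was that of col-116, with 2977 and 3157, then 659, and 640.2, 660.4 and 611 in the mutant (-2.27 ± 0.08, adjusted p = 6.22e-12), followed by col-163 (-2.08) and col-51 (-1.72). All 6 of these col genes were also called in the untreated worms, in the same direction. Because collagen genes are alike in sequence, reads may be shared between members.

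In the 2 smaller sets of collagens most calls were rises in the one and all were falls in the other. Of 13 body-shape and blister collagens, which when mutated make worms short, rolled or blistered, 7 rose and 1 fell. This is 61.5% called, beside 7.81% of all genes, with a median of 1.29 (0.84 with all 6 libraries). Dpy-5 had 3945 and 3883 normalized counts in N2 vitC replicates 1 and 2, 14646 in the library labelled replicate 3, and 14298, 15737 and 14818 in wrn-1 vitC, with a log2 fold change of 1.93 ± 0.06 (adjusted p = 3.27e-12). Rol-6 and dpy-4 followed with 1.87 ± 0.07 (adjusted p = 8.82e-12) and 1.8 ± 0.06 (adjusted p = 5.61e-12). The member that fell was bli-1, a collagen of the struts of the adult cuticle, from 111 ± 21.1 (SD, n = 2) in N2 vitC replicates 1 and 2 to 33.4 ± 6.66 (SD, n = 3) in the mutant, while bli-2 had 0.74 and was not called. The call of bli-1 was lost without N2 vitC replicate 2 (log2 fold change -1.52) or with the minimum group mean of the study. Summed over the list, the counts were 278860.0 and 287103 in N2 vitC replicates 1 and 2, 251246 in the library labelled replicate 3, and 259855, 251682 and 248996 in wrn-1 vitC, so that the sum was lower in the mutant although most members were higher. Members with large counts that were not called, among them sqt-3 (-0.34) and dpy-17 (-0.62), had negative values (both chosen after their values were seen).

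The 6 furrow collagens, which mark the circular grooves of the cuticle, all had negative values, with a median of -0.95 (-0.65 with all 6 libraries). The share called was 33.3%, beside 7.81% of all genes. Dpy-3 and dpy-8 were called, with log2 fold changes of -1.2 ± 0.06 (adjusted p = 1.75e-10) and -1.07 ± 0.05 (adjusted p = 3.80e-10), and the values of the 4 not called, dpy-9, dpy-2, dpy-10 and dpy-7 were -0.98, -0.91, -0.9 and -0.77. With equal totals the ratio of dpy-8 fell short of 2 (-0.95) and the call was lost, and with equal upper quartiles dpy-9 was called (-1.02). For dpy-3 the normalized counts were 5063 and 5409 in N2 vitC replicates 1 and 2, 2252 in the library labelled replicate 3, and 2363, 2271 and 2201 in wrn-1 vitC. Without vitamin C the order of the strains was the reverse for all 6 genes, with a median of 0.74 and a count for dpy-3 of 1675 ± 85.4 in untreated N2 and 2789 ± 17.5 in untreated wrn-1 (SD, n = 3 each). The change in the strain difference passed the interaction test in 6 of 6 genes, also with all 12 libraries.

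Other genes of the cuticle and the molt were called in both directions, more of them lower. Of 57 molting and cuticlin genes tested, 5 rose and 12 fell (29.8% called, beside 7.81% of all genes). Negative values were found in 45 and positive values in 12. The median was -0.45, and -0.31 with all 6 libraries. Mlt-11, a protease inhibitor needed to shed the old cuticle, had 44355 and 44338 normalized counts in N2 vitC replicates 1 and 2, 9231 in the library labelled replicate 3, and 14637, 6122 and 9611 in the mutant, with a log2 fold change of -2.22 ± 0.22 (adjusted p = 7.14e-07). The mutant libraries differed from each other by more than 2-fold for this gene. Mltn-5 and mltn-10 fell with -3.18 ± 0.23 (adjusted p = 2.48e-08) and -2.43 ± 0.16 (adjusted p = 7.28e-09), whereas the cuticlin gene cut-2 and the genes mltn-1 and mltn-3 rose with 1.98, 2.34 and 1.83. The call of mltn-3 was lost with the minimum group mean of the study. Of 10 genes tested for the hydroxylation and processing of collagen, 9 had a negative value, with a median of -0.74 (-0.49 with all 6 libraries). All 10 had an unadjusted limma p under 0.05, and 1 was called (10%, beside 7.81% of all genes). This was phy-2, a catalytic subunit of the collagen prolyl 4-hydroxylase, the enzyme class that uses ascorbate, with 5289 and 5190.0, then 2536, and 2567, 2588 and 2624 (-1.01 ± 0.05, adjusted p = 2.06e-10). With equal totals its ratio fell short of 2.

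Secreted hedgehog-related proteins had 8 members higher and 8 lower of 52 (30.8% called, beside 7.81% of all genes). Patched-related membrane proteins, relatives of the hedgehog receptor, had 0 higher and 5 lower of 26 (19.2% called). Grl-21, grd-6 and grl-15 rose by 2.11, 1.8 and 1.66 on the log2 scale, and grd-4, grl-3 and wrt-7 had -2.75, -1.98 and -1.74. The patched-related genes with the deepest fall were ptr-10 (-1.64 ± 0.09, adjusted p = 1.47e-09), ptr-8 (-1.51 ± 0.07, adjusted p = 1.09e-10) and ptd-2 (-1.49 ± 0.18, adjusted p = 4.19e-06). Astacin proteases, some of which trim collagens or open the old cuticle, had 4 higher (nas-9, nas-6 and nas-13 with 1.41, 1.38 and 1.24 among them) and 1 lower (nas-27, -1.13) of 27. This is 18.5% called. The call of nas-13 was lost with the minimum group mean of the study.

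Regulators of larval timing and of the molting cycle showed 2 genes higher and 2 lower of 25 (16% called, beside 7.81% of all genes). There were 22 negative values and a median of -0.51 (-0.32 with all 6 libraries). The nuclear receptor gene nhr-23, which drives the expression of molting genes, had 1956 and 1947 normalized counts in N2 vitC replicates 1 and 2, 951 in the library labelled replicate 3, and 1006, 840.4 and 939 in wrn-1 vitC (-1.07 ± 0.07, adjusted p = 7.00e-09). The epidermal transcription factor grh-1 had -1.16 ± 0.10 (adjusted p = 7.61e-08). Of those that rose, daf-9 is the cytochrome P450 that makes the hormone dafachronic acid, with 104.8 and 86.7, then 328, and 359.5, 321 and 348 (1.83 ± 0.09, adjusted p = 4.88e-10), and lin-46 acts late in the timing pathway (1.51 ± 0.12, adjusted p = 4.01e-08). Without vitamin C nhr-23 had 657 ± 32.3 in untreated N2 and 1312 ± 29.7 in untreated wrn-1 (SD, n = 3 each), so the order of the strains was the reverse. The call for nhr-23 was lost with equal totals, where its ratio fell short of 2.

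Immune effectors changed in both directions. Of 30 lysozymes and saposin-like proteins, 4 rose and 1 fell (16.7% called, beside 7.81% of all genes). The lysozyme genes lys-2 and lys-7 had 9521 ± 458 (SD, n = 3) and 6030.2 ± 363 (SD, n = 3) normalized counts in wrn-1 vitC, against 3425 ± 107 (SD, n = 2) and 2174 ± 46 (SD, n = 2) in N2 vitC replicates 1 and 2 and 9574 and 6268 in the library labelled replicate 3. Their log2 fold changes were 1.47 ± 0.05 (adjusted p = 1.12e-11) and 1.47 ± 0.06 (adjusted p = 6.25e-11), and that of the saposin-like spp-7 was 1.44 ± 0.16 (adjusted p = 1.68e-06). Of 114 C-type lectins tested of 265 listed, 13 rose and 6 fell (16.7% called). Clec-66 and clec-20 had 1.87 and 1.79, and clec-101 and clec-180 had -2.44 and -1.61. The calls of clec-20 and clec-101 were lost with the minimum group mean of the study. The epidermal peptides cnc-4 and cnc-8 moved apart, at 1.42 and -1.41.

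Lists of lipid metabolism and detoxification differed in their share of calls, beside 7.81% of all genes. Of 51 genes for fatty acid activation and beta-oxidation, 2 rose and 3 fell (9.8%). Lipases and lipid-binding proteins had 1 higher and 3 lower of 31 (12.9%), and short-chain dehydrogenases 1 higher and 3 lower of 29 (13.8%). The acyl-CoA synthetase acs-2 had 314 and 316, then 1065, and 1118, 1025 and 1012 (1.73 ± 0.06, adjusted p = 1.59e-11), and hacd-1, a hydroxyacyl-CoA dehydrogenase, 1.78 ± 0.08 (adjusted p = 7.16e-11). Cpt-6, a carnitine palmitoyltransferase, acs-3 and ech-1 fell, with -1.49, -1.29 and -1.43. Cytochrome P450 genes had 1 higher and 3 lower of 63 (6.35%), with the deepest fall in cyp-13B1, from 732 ± 49 (SD, n = 2) to 96.4 ± 7.51 (SD, n = 3) (-2.91 ± 0.14, adjusted p = 2.09e-10). Of the conjugating enzymes ugt-65 rose by 2.41 on the log2 scale and ugt-39 and ugt-33 had -1.26 and -1.0, the 3 called of 61 tested (4.92%), and 1 of 34 glutathione S-transferases was called (2.94%), gst-21 with 1.02. The call of gst-21 was lost without wrn-1 vitC replicate 3 (0.9) or with the minimum group mean of the study. That of ugt-33 was lost with equal totals (-0.88), without N2 vitC replicate 1 (-0.88) or without wrn-1 vitC replicate 2 (-0.89).

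The lists of antioxidant enzymes and of dioxygenases and HIF-1 pathway genes gave no calls, while phy-2 and gst-21 in other lists did. Among 27 antioxidant enzymes, 16 dioxygenases and HIF-1 pathway genes, and 14 fatty acid desaturases and elongases, 0 were called by limma, edgeR or DESeq2, and 18, 13 and 11 had an unadjusted limma p under 0.05, with medians of 0.11, 0.02 and 0.04. In the same order, the values of single members ranged from -0.8 to 1.26, from -2.34 to 0.98 and from -0.68 to 0.6. The antioxidant enzyme gene gpx-3 had 1.26 ± 0.17 (adjusted p = 1.61e-05) but a group mean under the minimum of 100. The 3 cytochrome b561 genes, whose proteins are reduced by ascorbate, had log2 fold changes of -0.23 ± 0.10 (adjusted p = 0.0439) for F39G3.4, -0.21 ± 0.06 (adjusted p = 0.00492) for F39G3.5 and -0.12 ± 0.07 (adjusted p = 0.118) for F55H2.5. For F39G3.4 the strains were much closer than without vitamin C, where it had 686 ± 30.5 in untreated N2 and 189 ± 17.5 in untreated wrn-1 (SD, n = 3 each). Of the insulin/IGF-1 list of 18 genes 1 was called (5.56%, beside 7.81% of all genes). This was dod-24, a gene regulated by the pathway, with 1248 and 1237, then 4768, and 4689, 4903 and 4852 (1.95 ± 0.05, adjusted p = 5.80e-13). Of 73 ribosomal protein genes (median 0.24) and 32 proteasome subunits (median 0.18), 0 were called by limma, edgeR or DESeq2, and 53 and 25 had an unadjusted limma p under 0.05.

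**Figure D4:**
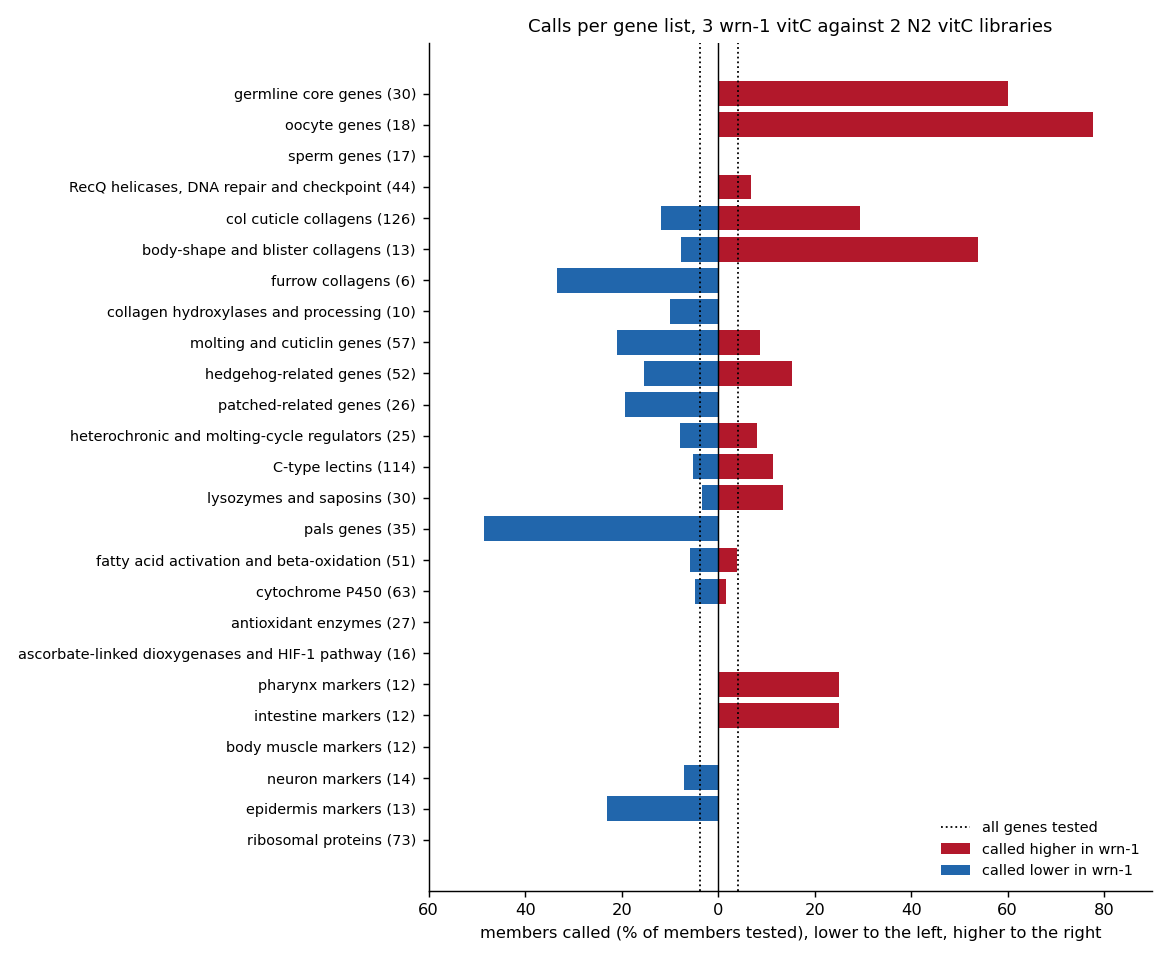
Share of the tested members of gene lists (number tested in parentheses) called higher (right) or lower (left) in wrn-1 vitC than in N2 vitC without the library labelled replicate 3. The dotted lines are the shares among all genes tested, 4.04% higher and 3.77% lower, and the bars of the oocyte, germ line, body-shape collagen and pals lists reach far past them.

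Markers of other tissues were called in part, beside 4.04% of all genes higher and 3.77% lower. Epidermis markers, 13 tested of which dpy-7 also belongs to the furrow collagens, all had negative values, with 3 called lower (23.1%) and a median of -0.88 (-0.6 with all 6 libraries). Their summed count was 129266 and 130616 in N2 vitC replicates 1 and 2, 57824 in the library labelled replicate 3, and 83084, 50009 and 58409.6 in wrn-1 vitC, and 77474 to 90666 in untreated N2 and 64441 to 76614 in untreated wrn-1. The 3 called were elt-1, the GATA factor that specifies the epidermis (-1.11 ± 0.07, adjusted p = 5.06e-09), and mua-3 and let-805, which tie epidermis, cuticle and muscle together (with -1.33 ± 0.21, adjusted p = 4.86e-05 and -1.33 ± 0.24, adjusted p = 1.97e-04). For let-805 the mutant libraries had 11298, 4815 and 6569, with replicate 1 far above the others, and the call was lost without wrn-1 vitC replicate 2 (log2 fold change -1.05, with a ratio of means short of 2). The call of elt-1 was lost with equal totals (-0.99).

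All 14 neuron markers had negative values (median -0.43, and -0.31 with all 6 libraries). Of these 1, the kinesin gene unc-104, was called (-1.24 ± 0.07, adjusted p = 1.33e-09), which is 7.14% of the list. Of 12 body muscle markers 0 were called by limma, edgeR or DESeq2 (median -0.34), and 10 had an unadjusted limma p under 0.05. Pharynx markers had 3 of 12 higher (25.0%), namely the myosin gene myo-1 (1.02), the troponin gene tni-4 (1.1) and phat-4 (1.25), and intestine markers had 3 of 12 higher (25.0%), the esterase gene ges-1 (1.01) and the cathepsin B-like genes cpr-1 (1.42) and cpr-5 (1.2). The call of myo-1 was lost with equal upper quartiles (0.98), without N2 vitC replicate 2 (0.95) or without wrn-1 vitC replicate 1 (0.9), and that of ges-1 with equal upper quartiles (0.97) or without wrn-1 vitC replicate 2 (0.98). The summed counts of the pharynx markers were 5911 and 5922 in N2 vitC replicates 1 and 2, 9157 in the library labelled replicate 3, and 11278, 9113 and 9725 in wrn-1 vitC, and those of the intestine markers 41669 and 42594 in N2 vitC replicates 1 and 2, 57692 in the library labelled replicate 3, and 63289.9, 58944 and 58227 in wrn-1 vitC. The calls among markers were thus rises for germ line, pharynx and intestine and falls for epidermis and neurons, with most of the pharynx, intestine, epidermis and neuron markers not called. Their part in the results above was not tested. Elsewhere fbxa-75, an F-box gene whose list is given below, had -2.7. The genes scl-2, hsp-12.2, a small heat shock protein, and oac-32, an acyltransferase homolog, had 2.46, 2.12 and 2.52. The oac acyltransferase list had 4 members higher and 4 lower of 32 tested (25% called), with a median of -0.34.

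Of 90 neuropeptide and insulin-like genes tested, 8 were lower (8.89%, beside 3.77% of all genes) and 0 higher. In the untreated worms 15 were lower and 3 higher. The insulin-like gene ins-18 had 212 and 234 normalized counts in N2 vitC replicates 1 and 2, 98.7 in the library labelled replicate 3, and 87.1, 87.2 and 85.6 in wrn-1 vitC, with a log2 fold change of -1.35 ± 0.12 (adjusted p = 2.20e-07). The neuropeptide genes nlp-20 and nlp-12 had -1.32 and -1.18, and all 3 were also called lower without vitamin C. Of 208 nuclear hormone receptors 1 was higher and 3 lower (1.92% called, beside 7.81% of all genes), among them nhr-91, with -1.34 ± 0.07 (adjusted p = 3.13e-10) against 0.93 without vitamin C. Of the chemoreceptors, most of whose 1628 genes did not reach the minimum for testing, 0 were higher and 5 lower (4.31% of those tested), and of 258 genes for F-box and MATH domain proteins, which serve in protein turnover, 16 were higher and 6 lower (8.53%).

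The strain difference under vitamin C was then set beside that without it, which uses no library in common. In the untreated strains 1768 of the same 14332 genes were called (12.3%) in the fit without the library labelled N2 vitC replicate 3, and 1732 (12.1%) in the fit of all libraries. Genes called in both, in the same direction, numbered 407, which is 36.4% of the vitamin C list and 23% of the untreated list, with 231 higher and 176 lower. Another 705 were called with vitamin C and not without it, and 7 in opposite directions. With the library labelled replicate 3 the count in both was 0. Across genes, which are not independent, the log2 fold changes of the comparisons had a Pearson's r of 0.584 and a Spearman's rho of 0.578.

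Of the 7 genes with opposite calls, 6 were lower in the mutant with vitamin C and higher without it, namely fbn-1, cdh-7, let-653, oac-31, C05D9.9 and col-141 (named after their values were seen). Fbn-1, an extracellular matrix protein of the molting epidermis, had 7734 and 7472 normalized counts in N2 vitC replicates 1 and 2, 2219 in the library labelled replicate 3, and 3029, 1434 and 2346 in wrn-1 vitC, and 2085 ± 119.7 in untreated N2 and 4404 ± 179 in untreated wrn-1 (SD, n = 3 each). The single gene in the other direction was ZK1290.10, with 1.11 with vitamin C and -1.13 without.

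**Figure D5:**
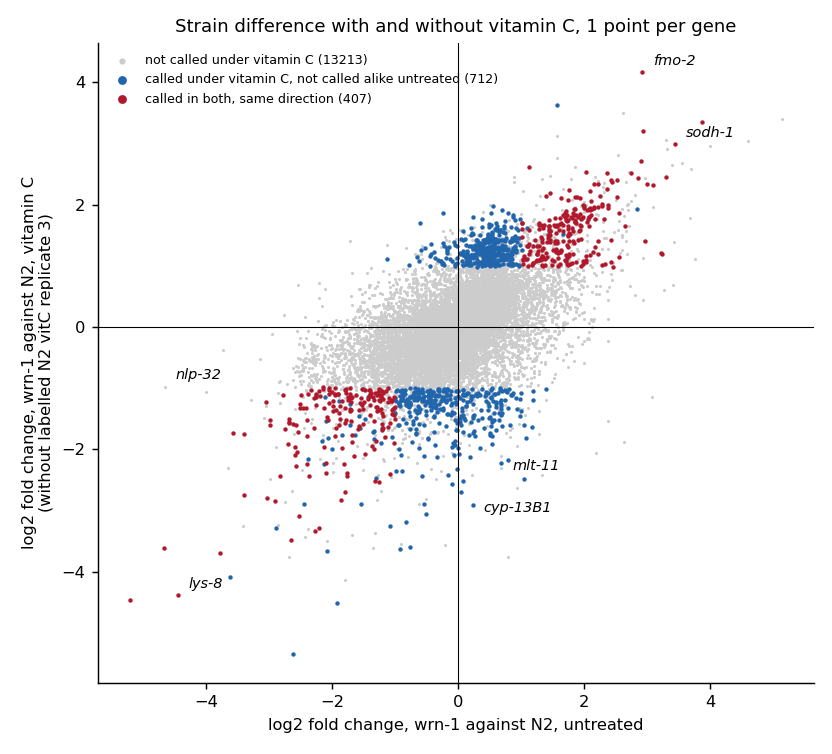
Log2 fold change of wrn-1 against N2 with vitamin C (vertical axis, without the library labelled N2 vitC replicate 3) against that without vitamin C (horizontal axis), 1 point per gene tested. Red points are the 407 genes called in both in the same direction, among them lys-8, sodh-1 and fmo-2, and blue points are genes called with vitamin C but not alike without it, such as mlt-11 and cyp-13B1.

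A change in the strain difference itself was tested as an interaction, with an adjusted p under 0.01, a change of 1 or more in log2 units and a group mean that reached 100. It passed in 970 genes (6.77%) with all 12 libraries and in 1279 (8.92%) without the library labelled N2 vitC replicate 3, with 841 genes in the same direction in both. Of the 1119 genes called under vitamin C, 321 passed it. Of the 407 called in both comparisons 43 did, and of the 705 called only with vitamin C 271 did, so that for 434 of these a change in the strain difference was not shown. For mlt-11 the interaction was -2.91 ± 0.30 (adjusted p = 1.64e-06), for nhr-23 -2.07 ± 0.09 (adjusted p = 3.23e-10) and for cyp-13B1 -3.14 ± 0.18 (adjusted p = 3.30e-09).

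Apart from the control tba-1, the study chose the RT-PCR genes among those at least 2-fold apart between the untreated libraries. Their calls without vitamin C thus follow largely from that choice. A smaller number or size of differences with vitamin C cannot be read from this set as an effect of vitamin C. Under vitamin C 4 of 17 were higher and 2 lower, against 8 and 7 without it. Sodh-1, daf-9, acs-2 and asah-1, an acid ceramidase (1.68 ± 0.06, adjusted p = 2.55e-11), were higher and lys-8 and ugt-33 lower. In acs-14, ech-9, cyp-34A9, cyp-33E2 and pes-8 the log2 fold changes under vitamin C were 0.86, 0.67, -0.83, -0.74 and -0.92, under the fold required, where those without it were 1.58, 1.53, -1.77, -1.64 and -1.93. The peptide gene nlp-32 had 70.7 and 64.4 normalized counts in N2 vitC replicates 1 and 2 and 47.6, 20.8 and 39 in wrn-1 vitC, with a log2 fold change of -0.97 against -4.65 without vitamin C. Nas-3, Y46G5A.20 and arrd-24 had 0.32, -0.53 and 0.6. The tubulin gene tba-1, which served as a control in the RT-PCR, had 17059.5 and 17371, then 12105, and 12328, 11921 and 11722, with a log2 fold change of -0.52 ± 0.05 (adjusted p = 4.66e-07).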

How the data were processed

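Whole-worm RNA of 12 populations was sequenced by the authors as paired reads from TruSeq libraries. Per the labels and the study's methods, the authors used TopHat for alignment to ce10, HTSeq for counting reads on genes and DESeq for the size factors by which each library was divided. The deposited signal is this normalized count, and 0 value columns were unmatched. The strand setting of the counting is not given in the sources used here, so overlapping genes cannot be told apart. Reads per value were recovered as whole multiples (tolerance 0.01) of the smallest step, 100% of values in each library. The libraries compared had 13446257 to 26467255 reads on genes, so a normalized count of 100 rests on more reads than one near the minimum of 10.

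The tests used limma 3.58.1 in R 4.3.3 (trend, Benjamini-Hochberg) on log2 of the count plus 1. Alternatives were DESeq2 1.42.0 and edgeR 4.0.16 on recovered reads, other pseudocounts, filters, scalings, thresholds, array weights, a replicate block and each library left out. The fit with the library labelled N2 vitC replicate 3 for single genes was an alternative added after seeing the data. The steps were run on simulated counts with known changes. No simulated library differed from its group, so this run does not cover a library like that labelled N2 vitC replicate 3. Genes named were wrn-1, the 8 highest and 8 lowest ratios, up to 3 called members per list and direction, members of lists of up to 6 and the RT-PCR genes, 162 in all, of which the text gives a part, and others are marked. Members and lists were chosen with earlier results of these data known. Chromosomes, exons and present symbols come from WBcel235, which is not the build of the files and which held 14181 of the 14332 genes. Most p-values given rest on a fit from which the outlying N2 vitC replicate had been dropped. Such values measure the spread among the biological replicates that were kept, pooled over the groups. They do not cover the full spread of the study's N2 vitC replicates. With all 6 libraries the smallest adjusted p of the strain difference under vitamin C was 0.0681. No sequence is shown.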

Additional observations from a re-analysis of the deposited data

Results flagged for a closer look

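The results flagged are those in which the strain difference with vitamin C differed from that without it, by the interaction test. Over all genes these were 970 with all 12 libraries and 1279 without the library labelled N2 vitC replicate 3. Among 121 genes given in the text there were 43, of which 15 also passed with all 12 libraries and 28 did not. Genes named after their values were seen, among them the 7 with opposite calls, are not part of these 121. In 23 of the 43 the fitted strain differences had opposite signs. The values below are the strain difference with vitamin C minus that without it, on the log2 scale, without the library labelled N2 vitC replicate 3.

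For genes of the cuticle and the molt, the values were -1.66 for dpy-2, -1.94 for dpy-3, -1.45 for dpy-7, -1.84 for dpy-8, -1.64 for dpy-9, -1.68 for dpy-10 and -1.33 for bli-1. They were -2.91 for mlt-11, -2.36 for mltn-5, -1.86 for mltn-10 and -2.07 for nhr-23, and -2.05 for ptr-10 and -2.08 for ptr-8. They were positive for wrt-7 (1.84), nas-6 (1.62), nas-13 (1.42) and nas-27 (1.06). Of these, wrt-7 and nas-27 were lower in the mutant with and without vitamin C, and less so with it. The epidermal genes elt-1 and let-805 had -1.18 and -1.38, and the nuclear receptor gene nhr-91 had -2.27.

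Pals-11 (C17H1.13) had -2.72, and the uncharacterised gene Y39G8B.5 had -2.71. CD4.5 and Y48G9A.11 had 2.05 and 1.48. In these 4 genes the difference grew with vitamin C and kept its sign. The immune genes spp-7, clec-20, clec-180 and cnc-8 had 1.4, 1.56, -1.65 and -1.99, and the meiotic genes zim-2 and htp-2 had 1.01 and 1.0.

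In metabolism the values were -1.88 for cpt-6, -1.4 for acs-3, -1.49 for ugt-39, -3.14 for cyp-13B1, -1.5 for cyp-13A10 and 1.24 for gst-21. Besides wrt-7 and nas-27, the difference was smaller with vitamin C than without it in F39G3.4 (1.62), cpr-1 (-1.0), gpx-3 (-1.33), nas-3 (-1.84), pes-8 (1.01), Y46G5A.20 (1.1) and nlp-32 (3.68).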

How the results depend on the processing

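With all 6 libraries 0 genes were called under most settings, against 173 with DESeq2 and 265 (47 higher, 218 lower) with array weights, which gave the library labelled N2 vitC replicate 3 the weight 0.039. Genes called in both strain comparisons rose likewise from 0 to 70 and 129. Leaving out single libraries gave 0 to 1119 calls and 0 to 407 in both comparisons, the higher value without that library. Without it, the count of 407 in both comparisons became 690 with no minimum group mean. The 1119 calls ranged from 978 (the study's minimum group mean) to 1639 (no minimum), and from 1090 to 1198 when a further library was left out. With 1 N2 vitC library left, its spread is assumed to be that of the other groups. The interaction counts of 970 and 1279 ranged over 805 to 1296 and 1126 to 1622. For libraries with the same replicate number, the deviations from the group means had r of 0.11, -0.08 and 0.05. The mean of N2 vitC included the library labelled replicate 3, which lay far from the others. These values therefore cannot show whether the replicate numbers pair the libraries. A replicate block gave 0 and 1120 calls and 950 and 1289 interactions.

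Of the genes in the text called without the library labelled replicate 3, 79 kept the call under each alternative, 22 lost it under at least 1, and 0 changed sign. Their adjusted p stayed at or below 0.00663, so that the ratio or the minimum group mean ended these calls. With the library, each of them lost the call in limma without array weights, at adjusted p-values of 0.0681 to 0.123. Depth limits the genes near the minimum of 10, such as the lowest pals genes.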
